A study of Bos taurus with 11 samples.

Results

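ARG2 (ENSBTAG00000001945) and DDO (ENSBTAG00000033367) were examined as a pair of amino acid degrading enzymes in the liver of lactating cows. They are 2 of 21996 genes counted, and they were chosen by their difference between the groups compared here, so their values between these groups are a description and carry no test. Liver mRNA of 11 multiparous Holstein-Friesian cows had been sequenced, with 5 animals in mild (MNEB) and 6 in severe (SNEB) negative energy balance, labelled as sampled 14 days after calving. Per the study's methods the day differed somewhat between cows and between the groups, and the days of single cows were not used here. The groups differed in both milking and feed. Milking was more frequent in SNEB, where silage was limited and the concentrate ration smaller, and silage was not limited in MNEB. The cows sequenced had been selected as extremes of energy balance within each group, and feed restriction and milking frequency cannot be told apart. The library of a further MNEB animal is not analysed here.

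The 19 lanes gave 1774011 to 4005322 gene reads for each animal in MNEB (median 3369237) and 1869837 to 6852142 in SNEB (median 3941504). Levels are CPM, the reads of a gene relative to the reads on all genes, of the lanes summed per cow, with TMM scaling between cows unless called unscaled. None of 12 hepatocyte markers had a name that could be matched to an identifier (0 of 12), so the label of liver was not checked against them. The samples are pieces of whole liver, so fewer cells of a type and less RNA per cell cannot be told apart.

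Arginase splits arginine into ornithine and urea. The cytosolic form, ARG1, is the urea cycle enzyme of the hepatocyte, whereas ARG2 is the mitochondrial form, whose ornithine can pass to proline, glutamate and polyamines. DDO, D-aspartate oxidase, is a flavoprotein of the peroxisome that oxidises D-aspartate and other acidic D-amino acids to the keto acid, ammonia and hydrogen peroxide, and its relative DAO acts on neutral and basic D-amino acids.

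ARG2 was at 15.2, 11.4, 15.4, 11.6 and 6.06 CPM in MNEB cows 1 to 5, and in the SNEB cows its lowest, median and highest levels were 20.03, 34.6 and 77.6 CPM. The groups did not overlap, with SNEB2 the lowest of its group and SNEB5 and SNEB6 well above the rest. Mean ARG2 was 11.9 ± 3.78 CPM (SD, n = 5) in MNEB and 42.5 ± 22.6 CPM (SD, n = 6) in SNEB. The log2 fold change of the fit over all genes was 1.86 with a standard error (SE) of 0.36, which is 3.62-fold. These levels rest on 22 to 62 ARG2 reads in each MNEB animal and 48 to 282 in each SNEB animal. ARG2 overlaps VTI1B in the ARS-UCD2.0 annotation. The reads were counted on Ensembl genes of an older assembly, BCM4, where overlap was not checked. The strand setting of the counting is not given in the sources used here, so reads of ARG2 and VTI1B may not be fully separated.

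DDO was at 12.99, 67.0, 0.591, 21.8 and 8.34 CPM in MNEB cows 1 to 5, and its lowest, median and highest levels in the SNEB cows were 34.9, 99.6 and 115.1 CPM. The groups overlapped through 1 animal, MNEB2, which lay above SNEB3, close to SNEB1 and below the other 4 SNEB cows. MNEB2 was above SNEB1 with TMM scaling (67.0 against 64.9 CPM) and below it without (64.7 against 68.0 unscaled CPM). MNEB3 stood at the opposite end, with nearly no DDO. Mean DDO was 22.1 ± 26.2 CPM (SD, n = 5) in MNEB and 87.0 ± 31.3 CPM (SD, n = 6) in SNEB. The log2 fold change was 2.03 (SE 0.58), or 4.08-fold. DDO overlaps no other gene in ARS-UCD2.0, and overlap in the Ensembl genes used for counting was not checked.

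**Figure D1:**
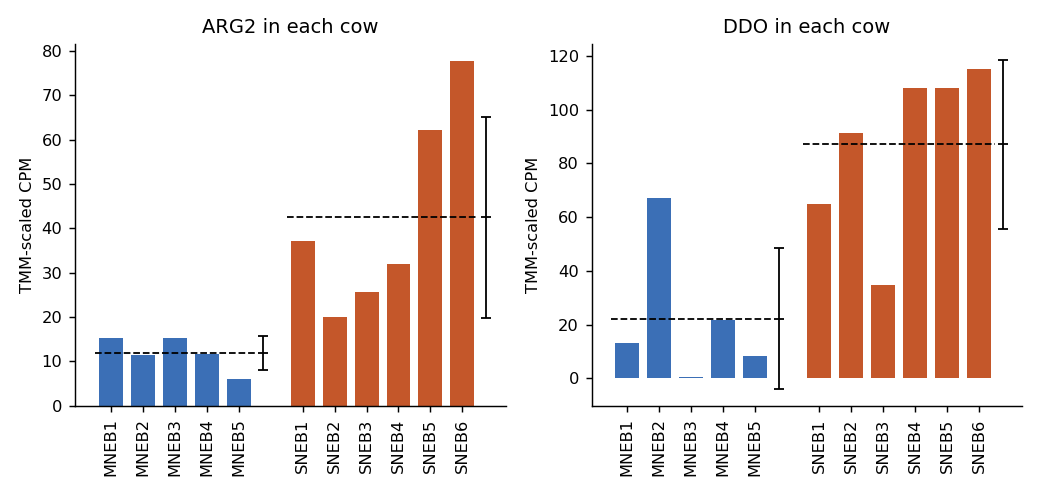
Levels of ARG2 and DDO (TMM-scaled CPM) in each cow, with bars for single cows, dashed lines for group means and error bars for the SD (n = 5 MNEB, blue, and n = 6 SNEB, orange). ARG2 reached 15.4 CPM at most in MNEB and 20.03 CPM at least in SNEB, whereas MNEB2 had 67.0 CPM of DDO and SNEB3 had 34.9 CPM.

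Over the 13960 genes tested with edgeR, 76 were called at an adjusted p under 0.1 (0.544%), of which 46 were higher in SNEB (0.33%) and 30 lower. Of the pair, 1 gene was called, ARG2, and DDO was not. In 107 genes (0.766%) the lowest SNEB level exceeded the highest MNEB level, and of the pair ARG2 was again the 1 gene among them. Because the pair was selected on this contrast, nothing is read from these counts, and the calls with cows left out describe only how the fit moved. The call of ARG2 was lost when MNEB2, MNEB4 or MNEB5 was left out, with log2 fold changes of 1.85, 1.85 and 1.67, and when flow cell A was left out (1.92). DDO was called when MNEB2 was left out, with a log2 fold change of 2.91 (SE 0.49), and when the flow cells entered the fit as a term (2.48, SE 0.44). The fit with the flow cell term called 100 genes over all. With the replicate number of the labels as a block, neither ARG2 (1.55) nor DDO (2.35) was called.

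**Figure D2:**
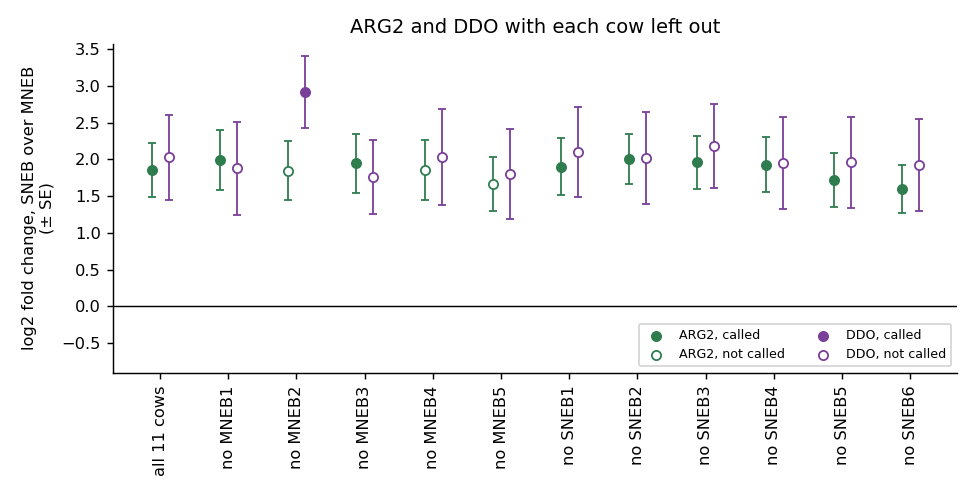
Log2 fold change of SNEB over MNEB (± SE, edgeR) for ARG2 (green) and DDO (purple) with all 11 cows and with each cow left out, where filled points were called at an adjusted p under 0.1. Leaving out single cows gave 1.60 to 2.01 for ARG2 and 1.76 to 2.91 for DDO, the highest DDO value being that without MNEB2.

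How the pair varied among cows of 1 group was described as well, with no test. The SD of log2 DDO was 2.31 in MNEB and 0.66 in SNEB. For ARG2 it was 0.53 in MNEB and 0.74 in SNEB. Single cows set some of these values, since the SD of DDO was 1.28 in MNEB without MNEB3 and 0.33 in SNEB without SNEB3, and that of ARG2 was 0.23 in MNEB without MNEB5. Of the 4600 genes within 2-fold of the mean level of DDO, 99.9% had a smaller SD than DDO among the MNEB cows (99.4% without MNEB3) and 97.0% among the SNEB cows (83.2% without SNEB3). Of the 4039 genes within 2-fold of the mean level of ARG2, 77.5% had a smaller SD than ARG2 among the MNEB cows (19.7% without MNEB5) and 95.8% among the SNEB cows. Both sets of genes were picked by the mean level over the cows of both groups. Mean DDO was 22.15 CPM in MNEB and 87.03 CPM in SNEB, and mean ARG2 was 11.94 and 42.46 CPM. The percentages therefore do not compare genes of equal level within a group, and the part of counting error in them was not tested. Within these sets, ARG2 in SNEB and DDO in MNEB were among the more uneven genes. DDO in SNEB was so with all cows, and less so without SNEB3. Each cow left out here was the one farthest from the others for that gene, so a lower rank is partly built in. When another MNEB cow was left out, the share for ARG2 was 81.0% (without MNEB1) to 86.7% (without MNEB2). The biological coefficient of variation was 0.70 for DDO and 0.39 for ARG2, higher than that of 97.7% and 86.1% of all genes tested.

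MNEB2 and MNEB3 are taken up here because their DDO levels were the highest and lowest of the MNEB cows. MNEB2 had 129 DDO reads, or 64.7 unscaled CPM (95% exact binomial interval 54.0 to 76.9), and MNEB3 had 1 read, or 0.564 unscaled CPM (0.0143 to 3.14). Their ratio was 114.8, with a counting interval of 20.2 to 4568. The remaining MNEB cows lay between them, with 33 to 73 DDO reads each. These intervals cover counting error only. MNEB2 and MNEB3 were each sequenced on a single lane, on different flow cells, so a lane effect on either value was not tested. The ratio of DDO reads to ARG2 reads, read between cows only because gene lengths were not used, was 0.855, 5.86, 0.0385, 1.87 and 1.38 in MNEB cows 1 to 5, and 1.35, 1.74 and 4.56 were its lowest, median and highest values in the SNEB cows. The ratio thus spanned a wider range in MNEB than in SNEB, with MNEB2 above all SNEB cows and MNEB1 and MNEB3 below them.

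For 7 cows the library had been run on more than 1 lane, which gave 9 pairs of lanes of the same library. The ARG2 pair with the smallest p was that of SNEB4, at 36.5 and 27.7 unscaled CPM (exact binomial test, unadjusted p = 0.116), and that with the largest was MNEB5, at 6.09 and 6.06. None of the 18 exact binomial tests (both genes, two-sided) passed after Benjamini-Hochberg adjustment (0 of 18), and 3 had an unadjusted p under 0.05, all for DDO. The smallest unadjusted p, 0.0103 (exact binomial test, adjusted p = 0.141), belonged to DDO in MNEB4, with 26.5 and 13.1 unscaled CPM on lanes loaded at different concentrations. The lanes of SNEB5 (122.4 and 97.5 unscaled CPM of DDO on flow cells B and C) and SNEB6 (126.0 and 100.7) gave the others. Loading also differed between the 3 lanes of SNEB4, where DDO was at 108.9, 114.9 and 103.5 unscaled CPM. An effect of loading was not tested. DDO was higher on flow cell B in 4 of the 5 cows run on both, and ARG2 in 3 of 5.

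**Figure D3:**
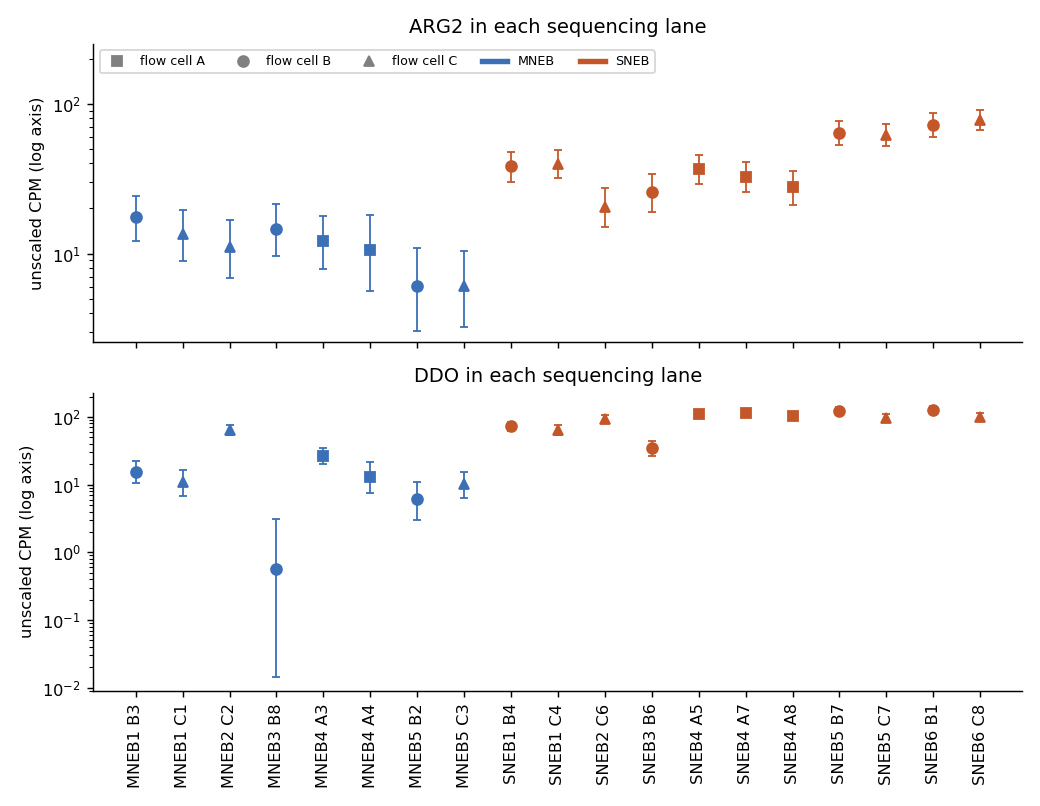
ARG2 and DDO in unscaled CPM in each of the 19 lanes (log axis), with 95% exact binomial intervals, by cow and flow cell. DDO was at 26.5 and 13.1 on the lanes of MNEB4 (not significant after adjustment) and runs from 0.564 in MNEB3 to 64.7 in MNEB2 within the MNEB group.

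Flow cells were shared between the groups, so each set of flow cells held cows of both. On flow cell A, ARG2 was at 11.6 CPM in MNEB4 and 31.9 CPM in SNEB4. On flow cell B it was at 15.4 CPM in MNEB3 and 25.7 CPM in SNEB3, and on flow cell C at 11.4 CPM in MNEB2 and 20.03 CPM in SNEB2. The SNEB cow was the higher of each pair, with 1 cow a group and no spread. Among the cows run on both B and C, mean ARG2 was 10.6 CPM in 2 MNEB cows and 59.04 CPM in 3 SNEB cows. The corresponding DDO levels were 21.8 against 107.9 CPM on A, 0.591 against 34.9 CPM on B, 67.0 against 91.4 CPM on C, and 10.7 against 96.0 CPM as means of the cows on both B and C. Between the sets, the DDO ratio was widest in that of MNEB3 (1 DDO read) and narrowest in that of MNEB2. A higher level in SNEB chose both genes, so its return within the sets is no support for it.

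Whether ARG2 and DDO varied together was examined across the 6 SNEB cows. Pearson's r on log2 CPM was 0.50 (exact permutation p = 0.304, two-sided) and Spearman's rho was 0.71 (exact permutation p = 0.136), and adjusted over these 2 tests the p-values were 0.304 and 0.272. Without SNEB5 and SNEB6, the cows farthest from the median of ARG2, r was 0.01 and rho was 0.0 over 4 cows. Without SNEB5 alone r was 0.42, and without SNEB6 alone 0.36. Leaving out both cows also narrows the range of ARG2, and no relation was detected at this sample size. Taken as deviations from the group means over all 11 cows, r was 0.02 (exact permutation within the groups, p = 0.958). The sets of flow cells held at most 3 SNEB cows, too few to give the relation within a set.

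**Figure D4:**
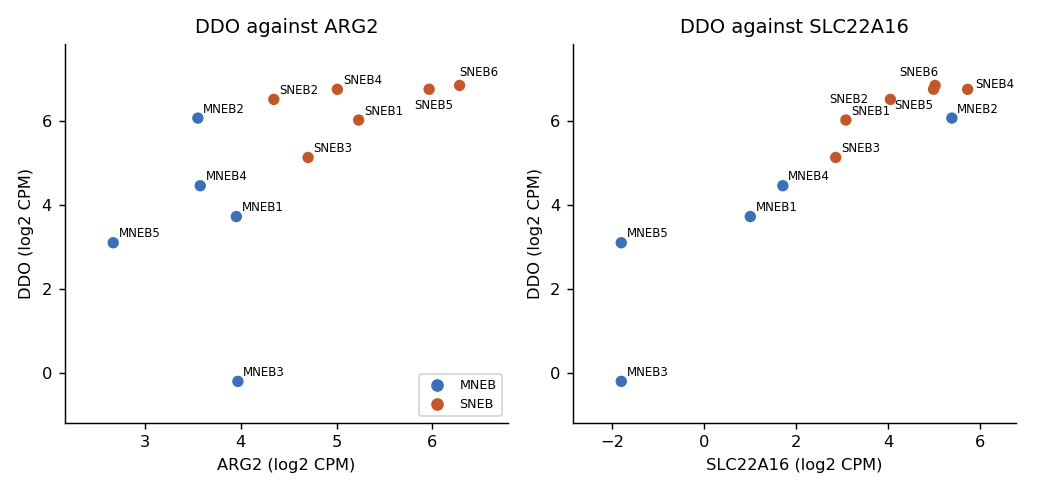
Log2 CPM of DDO in each cow against ARG2 and against SLC22A16, the gene beside DDO, for MNEB (blue) and SNEB (orange) cows. MNEB2 lies among the SNEB cows for DDO and SLC22A16 but not for ARG2, and the SLC22A16 points of MNEB3 and MNEB5 stand for 0 reads.

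Genes with the most similar pattern were ranked over all 11 cows among 11847 genes with a mean of at least 10 reads per cow, by the root mean square difference of their scaled log2 levels. Such a ranking includes the difference between the groups. For ARG2 the closest were ENSBTAG00000039529 (difference 0.354), ENSBTAG00000043974 (0.405), CAPN11 (0.415), ENSBTAG00000020869 (0.485) and ASPG (0.499). CAPN11, which encodes a calpain, was at 87.4 ± 19.4 CPM (SD, n = 5) in MNEB and 232.3 ± 56.2 CPM (SD, n = 6) in SNEB, and its groups did not overlap. DDO ranked 554 in this order (0.870).

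For DDO the closest were ENSBTAG00000008384 (0.296), ANGPTL4 (0.314), LRFN4 (0.335), ENSBTAG00000015405 (0.350) and ENSBTAG00000011619 (0.351). ANGPTL4, a secreted inhibitor of lipoprotein lipase, was at 208.4, 393.9, 91.0, 170.1 and 154.4 CPM in MNEB cows 1 to 5, and its lowest, median and highest levels in the SNEB cows were 437.2, 529.4 and 638.2 CPM. As with DDO, MNEB2 was the highest and MNEB3 the lowest MNEB cow, but the ANGPTL4 groups did not overlap. ARG2 ranked 1130 in the order for DDO.

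With the group means removed, the closest to ARG2 were ENSBTAG00000008110 (0.402), ENSBTAG00000013900 (0.434) and ENSBTAG00000021093 (0.456). For DDO they were ENSBTAG00000013801 (0.259), ENSBTAG00000012849 (0.282) and ENSBTAG00000014782 (0.310). None of these 6 genes has a symbol in the names used here, and their log2 fold changes lay between -0.13 and 0.25. DDO ranked 5614 for ARG2, and ARG2 ranked 5771 for DDO, near the middle of the order.

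In ARS-UCD2.0, DDO lies between SLC22A16 and METTL24, and SLC22A16 had a name that could be matched. SLC22A16, a carnitine transporter of the organic cation family, was singled out after its values had been seen. It was at 1.72, 41.6, 0.0, 2.98 and 0.0 CPM in MNEB cows 1 to 5, and its lowest, median and highest levels in the SNEB cows were 6.97, 23.9 and 52.8 CPM. MNEB2 was again the highest of its group, above 5 of the 6 SNEB cows, while the other MNEB cows lay below all SNEB cows. MNEB3 and MNEB5 had 0 reads, which allows up to 1.69 and 0.759 unscaled CPM. SLC22A16 ranked 9 in the order for DDO (0.390), and 82 with the group means removed (0.525). Its log2 fold change was 1.60 (SE 0.95, edgeR adjusted p = 0.718) with all cows and 4.26 (SE 0.80, edgeR adjusted p = 0.047) without MNEB2, and the adjusted p over single cows left out ran from 0.0470 to 0.911. SLC22A16 was called in 1 of 11 fits without a cow. That fit left out the highest MNEB cow of a gene singled out by its values, so nothing is read from its p-value.

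The enzymes around ARG2 and DDO could be described in small part. Names were matched for 413 genes that had been listed for this contrast, so values of named genes are not independent evidence of any pathway. Of 191 genes in the pathway lists 16 had a name, ARG2 and DDO included, and their median log2 fold change was 0.70, against -0.01 for all genes tested. Of these, 2 were called higher in SNEB and 0 lower with edgeR (0.544% of all genes tested were called), whereas DESeq2 called 5 (2.21% of all). Because the names came from genes listed for this contrast, nothing is read from this median or these counts. ARG1 and DAO had no name that could be matched and are given no value, and the same held for the whole urea cycle list (0 of 8) and peroxisome list (0 of 40).

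In the list for arginine, ornithine and proline, 3 of 32 genes were named and 1 was called, ARG2 (0.544% of all genes tested), with a median log2 fold change of 0.79 against -0.01 for all genes, both set in part by how ARG2 and the names were chosen. OAT, the mitochondrial aminotransferase that takes ornithine onward from arginase, was at 57.3 ± 31.5 CPM (SD, n = 5) in MNEB and 97.4 ± 36.6 CPM (SD, n = 6) in SNEB, with overlapping groups (log2 fold change 0.79, SE 0.31, edgeR adjusted p = 0.467). PYCR1, which makes proline in the mitochondrion, was at 80.8 ± 37.5 CPM in MNEB (SD, n = 5) and 50.9 ± 10.6 CPM in SNEB (SD, n = 6), also overlapping (-0.68, SE 0.26, edgeR adjusted p = 0.44). Neither OAT nor PYCR1 passed the test.

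In the list for D-amino acids, aspartate and asparagine, 3 of 20 genes were named and 1 was called (0.544% of all genes tested), with a median of 1.57 against -0.01 for all genes, of which the same holds. ASPG, an asparaginase that yields aspartate and ammonia, was at 65.7, 79.0, 39.0, 51.3 and 38.7 CPM in MNEB cows 1 to 5, and its lowest, median and highest levels in the SNEB cows were 73.5, 151.4 and 236.5 CPM. It rose in SNEB (log2 fold change 1.57, SE 0.29, edgeR adjusted p = 0.0391), with 5 of 6 SNEB cows above all MNEB cows and SNEB3 below MNEB2. Its call was lost without MNEB3 (1.48, edgeR adjusted p = 0.103), without MNEB5 (1.46, adjusted p = 0.125) and without flow cell A (1.62, SE 0.34, adjusted p = 0.134), and the alternatives gave adjusted p-values of 4.64e-05 to 0.134. ASNS, which makes asparagine from aspartate, was at 69.8 ± 19.4 CPM (SD, n = 5) in MNEB and 39.6 ± 10.6 CPM (SD, n = 6) in SNEB. It was not called by edgeR (-0.82, SE 0.22, adjusted p = 0.181), with 5 of 6 SNEB cows below all MNEB cows, whereas DESeq2 called it (adjusted p = 0.0380), as did edgeR without MNEB1 (-0.95, adjusted p = 0.0744), and the alternatives gave adjusted p-values of 0.0380 to 0.556.

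Among 55 genes for the degradation of other amino acids 5 were named and 0 called by edgeR (0.544% of all genes tested were called). Their median log2 fold change was -0.49, against -0.01 for all genes, and the names came from genes listed for this contrast. KMO, GLDC and GNMT had an unadjusted p under 0.05 (edgeR), as had 1165 of all genes tested. Those of smallest p were GLDC, the decarboxylase of the glycine cleavage system, and GNMT, which methylates glycine. GLDC was at 489.4 ± 72.7 CPM (SD, n = 5) in MNEB and 348.2 ± 36.9 CPM (SD, n = 6) in SNEB, with 5 of 6 SNEB cows below all MNEB cows (-0.49, SE 0.11, edgeR adjusted p = 0.105). It was called in 4 of 9 alternatives, DESeq2 (adjusted p = 0.0119) and 3 edgeR fits, and in 3 of 11 edgeR fits without a cow, and 0.0119 was the lowest and 0.115 the highest adjusted p of the 9. GNMT was at 45.8 ± 23.3 CPM (SD, n = 5) in MNEB and 88.2 ± 35.1 CPM (SD, n = 6) in SNEB (0.95, SE 0.33, edgeR adjusted p = 0.358). KMO, HAL and SDSL, of tryptophan, histidine and serine degradation, had log2 fold changes of -1.03, 0.50 and -1.27 and were not called. The SDSL value rested on MNEB5, without which it was -0.08.

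Of 10 gluconeogenesis genes 2 were named, FBP2 (log2 fold change 1.25, SE 0.99) and the coactivator PPARGC1A (0.60, SE 0.30). Of these 0 were called by edgeR (0.544% of all genes tested were called). The FBP2 value moved with single cows, to 2.20 without MNEB5 and 0.91 without SNEB4, and was 0.59 on flow cells B and C only. Of 26 amino acid transporters 3 were named and 0 called by edgeR, beside the same 0.544% over all genes. SLC43A2, a carrier of large neutral amino acids, was at 83.8 ± 34.9 CPM (SD, n = 5) in MNEB and 180.1 ± 81.7 CPM (SD, n = 6) in SNEB (1.11, SE 0.32, edgeR adjusted p = 0.228, DESeq2 adjusted p = 0.0476, and 0.0476 to 0.577 over the alternatives). SLC7A5 and SLC6A12 had log2 fold changes of 0.48 and 1.53, and that of SLC6A12 was negative without SNEB6. The SLC7A5 value was 0.06 on flow cells B and C only, and ran from 0.23 (without MNEB4) to 0.84 (without MNEB2) with single cows left out.

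**Figure D5:**
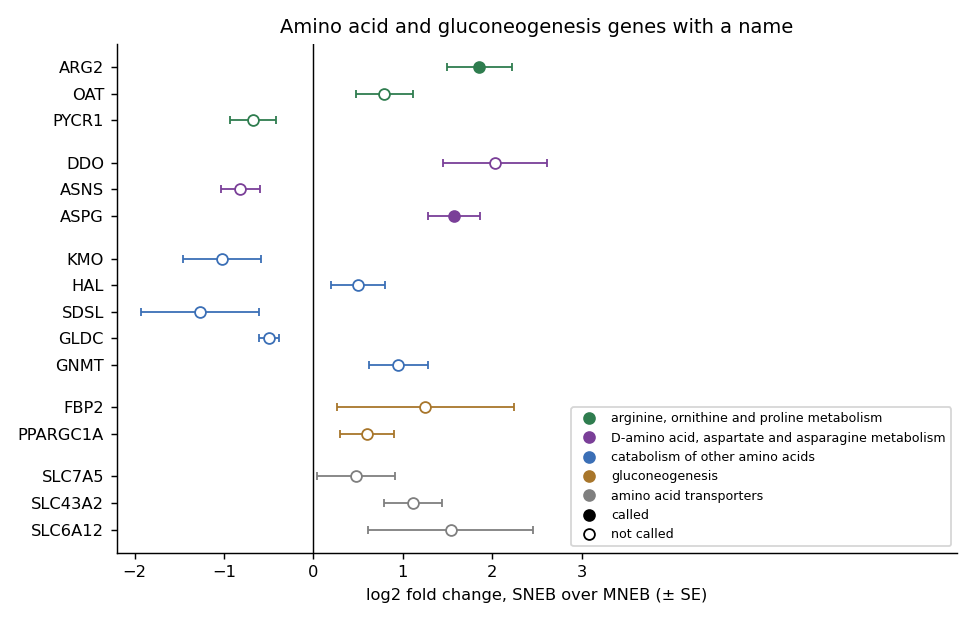
Log2 fold change of SNEB over MNEB (± SE, edgeR, 5 and 6 cows) for the 16 named genes of the pathway lists, grouped by list, where filled points were called at an adjusted p under 0.1. ARG2 (1.86) and ASPG (1.57) were called, and DDO (2.03) had the highest value with a wide SE of 0.58.

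Markers of other cells could be read for 4 genes, each the single named gene of its list. Their names also came from genes listed for this contrast, so their values and calls are no independent reading of cell types. CDH1, an epithelial cadherin of bile duct cells that hepatocytes also make (1 of 8 cholangiocyte markers named), was at 195.9, 199.0, 254.8, 219.4 and 219.1 CPM in MNEB cows 1 to 5 and had a lowest, median and highest level of 118.1, 135.5 and 151.2 CPM in the SNEB cows. It fell in SNEB (-0.69, SE 0.11, edgeR adjusted p = 0.012), opposite in direction to ARG2 and DDO, with groups that did not overlap. MARCO of macrophages (1 of 10) was at 139.2 ± 63.0 CPM (SD, n = 5) in MNEB and 90.4 ± 51.5 CPM (SD, n = 6) in SNEB, and S100A12 of neutrophils (1 of 8) at 22.0 ± 10.2 and 46.4 ± 20.1 CPM. LRP2 of kidney tubules (1 of 10) was at 1.58 ± 1.005 CPM (SD, n = 5) in MNEB and 5.21 ± 2.24 CPM (SD, n = 6) in SNEB, without overlap of the groups. Its levels rest on few reads, 0 to 9 in each MNEB cow and 6 to 60 in each SNEB cow. These 3 genes were not called by edgeR (0.544% of all genes tested were called). DESeq2 called LRP2 (adjusted p = 0.0712, with 0.0712 to 0.555 over the alternatives). No marker of leukocytes, endothelium, stellate cells or erythroid cells was named. Among the MNEB cows MARCO, as DDO, was highest in MNEB2 (224.0 CPM) and lowest in MNEB3 (62.7 CPM). S100A12 was also highest in MNEB2 (36.9 CPM) but lowest in MNEB1 (10.8 CPM), and CDH1 was highest in MNEB3. Among the SNEB cows MARCO was highest in SNEB3 (178.1 CPM), the lowest for DDO. The part of cell makeup in the ARG2 and DDO levels was not tested.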

How the data were processed

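PolyA RNA from the liver of 11 cows had been read from a single end, on 19 lanes of 3 flow cells. Per the study's methods, the authors used Bowtie for alignment to BCM4, discarded reads with several alignments, kept a single read per position and counted reads per Ensembl gene with HTSeq (base calling with CASAVA 1.4 per the submitters' processing notes). The deposited values are raw counts per gene and lane. Keeping a single read per position caps high counts.

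Lanes were summed per cow. Genes under 5 reads in all cows were left out, and the other 13960 entered edgeR 4.0.16 in R 4.3.3 (TMM, quasi-likelihood test, Benjamini-Hochberg adjustment, called under 0.1). The SE given with an edgeR log2 fold change is its absolute value divided by the square root of the quasi-likelihood F statistic. It is thus derived from the test and is not a separate estimate of the fit. DESeq2 1.42.0 was an alternative. Log2 levels used a prior count of 1. The fits were tested on simulated data. Correlations used all 720 pairings of the 6 SNEB cows, and 86400 orders within the groups. Intervals are exact at 95%, and the limit for 0 reads is 3 reads. Other alternatives were other size factors and filters, flow cell terms or subsets, the replicate number as a block, a single lane per cow, thinning to the smallest library, and leaving out each cow.

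The members and lists were chosen with earlier results of these data known. Named genes are ARG2, DDO, ARG1 and DAO, pathway genes called or with the smallest p-values, and the 5 most similar genes to each member (3 with group means removed). The remaining named pathway genes, and SLC22A16, were added after values were seen. DDO's identifier and 413 gene names came from the gene name columns of a supplementary list, whose values were not used. Gene neighbours came from RefSeq (ARS-UCD2.0), without coordinates. Microarray values were not used here. Plots were drawn with matplotlib 3.10.9.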

Additional observations from a re-analysis of the deposited data

Results flagged for a closer look

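Among 72 groups of values (36 genes in 2 groups), 6 held a cow far from the others, where chance is taken to flag about 1 in 20 groups. That rate was not checked on CPM values, and the 6 flagged values were all high ones. It is also for genes not chosen by their values, which SLC22A16 and the genes similar to ARG2 or DDO were. The pathway and marker genes had names only because they were listed for this contrast. Nothing is therefore read from 6 of 72 against that rate. DDO and ARG2 were not among the genes flagged. SLC22A16, beside DDO, was at 41.6 CPM in MNEB2, with the next MNEB cow at 2.98 CPM. MNEB2 also stood apart for GNMT, at 85.7 CPM against 41.9 CPM in the next cow. MNEB3 stood apart for PPARGC1A (238.8 CPM against 117.5) and SLC6A12 (7.09 CPM against 2.78). MNEB5 had 19.96 CPM of SDSL against 5.72, and SNEB6 had 39.1 CPM of SLC6A12 against 4.53. MNEB2 and MNEB3 are also the highest and lowest MNEB cows for DDO, and what sets them apart was not tested.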

How the results depend on the processing

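ARG2 and DDO were higher in SNEB under all alternatives run, with log2 fold changes of 1.55 to 1.92 for ARG2 and 1.95 to 2.48 for DDO over 9 alternatives, and 1.60 to 2.01 and 1.76 to 2.91 with single cows left out. ARG2 was called in 7 of the 9 and in 8 of 11 fits without a cow, DDO in 1 of 9 and 1 of 11, which is a description, since both were selected on this contrast. The 76 called genes became 290 with DESeq2, 100 with the flow cell term and 34 on flow cells B and C only. They were 40 to 125 with single cows left out (125 without MNEB1, 50 without MNEB3, 40 without MNEB5 and 120 without SNEB3). Called pathway genes, 2 with edgeR, were 5 with DESeq2 (ARG2, ASNS, ASPG, GLDC, SLC43A2), 4 with the flow cell term (ARG2, DDO, ASPG, GLDC) and 0 on flow cells B and C only. In added fits chosen after seeing the data, without MNEB2 and MNEB3 together 29 genes were called, 1 of them in the pathway lists (DDO, 2.62, while ARG2 at 1.96 was not called), and with only the 5 cows run on both B and C 4 were called, again with 1 (DDO, 3.16, while ARG2 at 2.46 was not called). The correlation of ARG2 and DDO across SNEB cows ran from 0.36 to 0.73 with single cows left out.

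The labels do not say that equal replicate numbers mark pairs, but same-numbered cows were run on the same flow cells, so number and flow cell overlap. Deviations of same-numbered cows correlated over 0.1 in 2 of 5 pairs (-0.03 to 0.29), and 1 of 5 MNEB cows correlated best with its own number. With the replicate block 80 genes were called, without ARG2 (1.55) and DDO (2.35). SLC6A12 turned negative with the replicate block (-0.31) and without SNEB6 (-0.37), and KMO turned positive with only the cows run on both B and C (0.26). The causes were not tested. Depth limits the lowest values: 1 DDO read in MNEB3 and 0 SLC22A16 reads in MNEB3 and MNEB5.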
